A study of Mus musculus with 9 samples.

Results

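Arf2 and its 5 closest relatives, Arf1, Arf3, Arf4, Arf5 and Arf6, are the ADP-ribosylation factor (ARF) GTPases of the mouse. They were taken by gene name from the deposited table as the protein-coding genes with these symbols, 6 of 56748 genes. All 6 had enough counts to be tested, among 14510 genes that did. Arf2 was picked because its counts were higher under lefamulin and not under tiamulin, so its values in these libraries are a description and carry no test. The other 5 were picked by name, and for these the p values come from the quasi-likelihood test of edgeR, adjusted over all tested genes by the Benjamini-Hochberg method.

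RNA-Seq was performed on Hepa1-6 cells, a mouse hepatoma line, in 3 groups of 3 libraries. Cells received 37 µg/mL lefamulin for 2 days, 37 µg/mL tiamulin for 2 days, or served as a control, which the labels call untreated and the study calls vehicle-treated. All groups grew in the same medium, with serum and penicillin-streptomycin. Lefamulin and tiamulin are pleuromutilins, antibiotics that bind the bacterial ribosome. They share a core and differ in the side chain. The labels give neither a genotype nor an allele, and nothing says that the 3 libraries of a group came from separate cultures, so the p values measure the spread between libraries, which may be technical.

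Total counts per library lay between 15568887 and 18008105. Of 10 hepatocyte markers, 6 had more than 10 counts in every library, Alb and Afp among them, and the rest were low. Serpina1a was at 0 throughout, and Ttr and Apoa1 had no more than 6 counts in any library. Summed over the list, hepatocyte markers reached 2520 to 2730 CPM (counts relative to the library size) in the controls, 2470 to 2590 CPM with lefamulin and 1960 to 2090 CPM with tiamulin. Of the blood cell markers, Cd3e, Adgre1 and Hbb-bs were at 0 in all libraries, and their list summed to 0.578 to 1.28, 1.67 to 2.67 and 1.21 to 1.99 CPM in the same order. Lyz2, Ptprc and Hba-a1 made up most of it, with at most 23 counts each. Of the endothelial markers, Emcn was at 0 and Pecam1 had 15 to 67 counts and the others at most 8, and the list summed to 1.27 to 1.72 CPM in the controls, 2.59 to 4.05 CPM with lefamulin and 3.03 to 4.47 CPM with tiamulin. The fibroblast list summed to 1470 to 1560, 1140 to 1190 and 1030 to 1120 CPM in the same order, nearly all of it from Dcn, while Col1a2, Col3a1, Pdgfrb and Lum had at most 2 counts. The part of these markers in the results was not tested. Tiamulin 2 stood apart from the other libraries of its group. Its deviations from the group mean followed the GC content of the genes with a Spearman's rho of 0.71 across 9584 genes, against -0.56 and -0.599 in tiamulin 1 and 3. Control 1 and 2 had trends of 0.523 and -0.512, and these libraries enter every comparison with control.

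ARFs are small GTPases that switch between a GDP-bound form in the cytosol and a GTP-bound form on membranes. Exchange factors load them with GTP, and GTPase-activating proteins switch them off. On the Golgi apparatus, GTP-bound ARFs recruit the COPI coat, the clathrin adaptors AP-1 and GGA and enzymes that modify lipids. ARF1, ARF2 and ARF3 form class I, ARF4 and ARF5 class II, and both classes act mainly along the secretory pathway. ARF6, the sole member of class III, works at the plasma membrane and on endosomes. The ARF2 gene is present in the mouse and has been lost in humans, so the pattern described here concerns a gene without a human ortholog.

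The 6 genes encode very similar proteins, so whether their reads can be told apart bears on every value below. The stretch shown here starts with the longest run of bases that Arf2 shares with another member and codes for a conserved part of the GTP-binding site. It covers bases 181 to 240 of the Arf2 coding sequence, counted from the first base of the start codon, and the bases aligned with them in the other genes. The sequences are from GENCODE M21 (GRCm38), in 5′ to 3′ direction, and capitals mark the bases that differ from Arf2.
Arf1: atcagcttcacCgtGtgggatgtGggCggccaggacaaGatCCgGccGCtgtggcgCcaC
Arf2: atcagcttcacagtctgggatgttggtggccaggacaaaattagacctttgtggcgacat
Arf3: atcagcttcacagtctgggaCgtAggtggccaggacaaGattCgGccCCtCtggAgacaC
Arf4: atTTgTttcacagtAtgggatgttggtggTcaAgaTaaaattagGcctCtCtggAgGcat
Arf5: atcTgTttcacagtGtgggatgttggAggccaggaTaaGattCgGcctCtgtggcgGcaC
Arf6: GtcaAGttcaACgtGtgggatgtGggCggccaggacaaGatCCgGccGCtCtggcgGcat
Even here the other members differed from Arf2 at 10 to 16 of 60 bases, the fewest in Arf3 and the most in Arf6.

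Over the whole coding sequence, Arf2 was 80.6% identical to Arf1 and 80.2% to Arf3, the other class I genes. It was 69.6% identical to Arf4, 72.5% to Arf5 and 65.6% to Arf6. The most similar pair in the family was Arf1 and Arf3, at 83.7%. The longest run of identical bases that Arf2 shared with another member was 20 bases, with Arf3, and it is the start of the stretch above. The longest between any members was 39 bases, between Arf1 and Arf6. None of the 497 windows of 50 bases in the Arf2 coding sequence occurred in a transcript of another gene, and the same held for Arf3, Arf4, Arf5 and Arf6. In Arf1, 42.66% of such windows also occurred in transcripts of 2 other genes, AC127331.2 and Gm19587, which had at most 2 counts in any library. The untranslated parts were not compared, and the read length is not given in the sources used here.

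In the deposited table Arf2 (ENSMUSG00000062421) lies on the plus strand of chromosome 11, from 103857565 to 103876163. The submitters' notes name the build mm10, but the deposited positions of none of the 6 genes equal those in GRCm38, so they are given as deposited. No other gene in the table overlaps Arf2. The nearest protein-coding gene before it is Nsf, an ATPase that takes SNARE complexes apart after membrane fusion, on the opposite strand and 12683 bases away. The nearest after it is Crhr1, 147518 bases away, with no count in any library.

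Arf2 was 2.21-fold higher under lefamulin than in the control, and the tiamulin libraries overlapped the controls. In bulk RNA, more cells expressing the gene and more RNA per cell cannot be told apart. It had 574, 620 and 588 counts in controls 1, 2 and 3, 1121, 1279 and 1254 counts in lefamulin 1, 2 and 3, and 552, 542 and 523 counts in tiamulin 1, 2 and 3. All lefamulin libraries lay above all others, although their total counts were lower than those of the controls, and the tiamulin counts were below the control counts but overlapped them once scaled to the totals, with tiamulin 3 the lowest. In TMM-normalized CPM, the Arf2 level averaged 34.0 ± 1.79 in control cells, 75.2 ± 3.08 in lefamulin-treated cells and 32.7 ± 1.70 in tiamulin-treated cells (SD, n = 3 each). Lefamulin against control gave a log2(fold change) of 1.14 (SE 0.073, 95% interval 0.99 to 1.30), or 1.98-fold to 2.46-fold. Of tiamulin against control it was -0.06 (SE 0.076, 95% interval -0.22 to 0.11), and of tiamulin against lefamulin -1.2 (SE 0.074, 95% interval -1.36 to -1.04). Ranked by log2(fold change), Arf2 was number 187 of 14510 genes under lefamulin and number 8700 under tiamulin. When single libraries were left out, the lefamulin value ranged from 1.12 to 1.19 and the tiamulin value from -0.08 to -0.01.

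**Figure D1:**
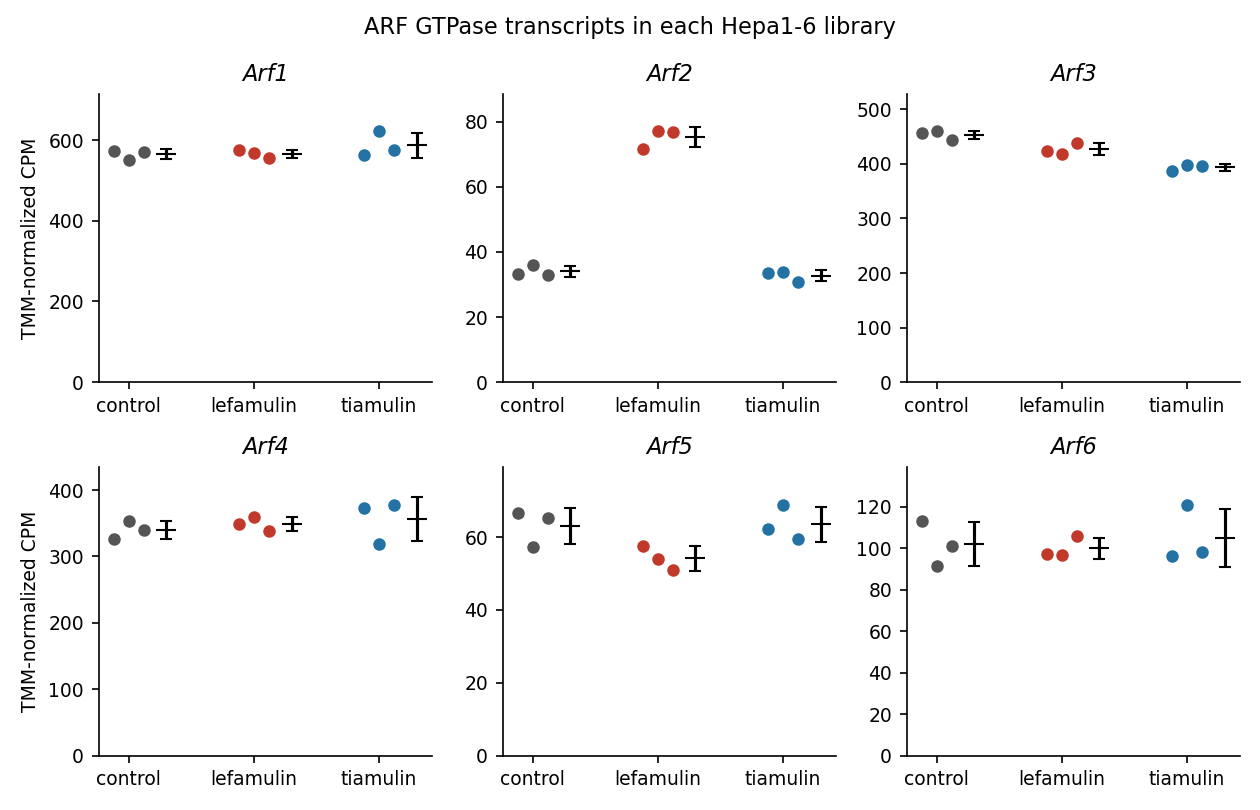
TMM-normalized CPM of the 6 ARF genes in each of the 9 libraries, by group. Points are libraries and the bar beside them is the mean with its SD (n = 3), and each axis starts at 0. The lefamulin libraries of Arf2 lie between 71.6 and 77.1 CPM, above the 30.8 to 36.1 CPM of all other libraries, while Arf1, Arf4 and Arf6 overlap between all groups.

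The other class I genes, both far more abundant, did not share this pattern. Arf1 (ENSMUSG00000048076, chromosome 11, 59102238 to 59119096, minus strand), the ARF that recruits COPI to the Golgi, had 9943, 9471 and 10212 counts in the controls. Lefamulin libraries had 9005, 9410 and 9066 counts, and tiamulin libraries 9233, 9958 and 9779. Scaled to the library totals, all groups overlapped, at 565 ± 12.3, 566 ± 9.92 and 587 ± 31.6 CPM (SD, n = 3 each). Arf1 stood at a log2(fold change) of 0.00 with lefamulin (SE 0.052, 95% interval -0.11 to 0.11, edgeR-adjusted p = 0.986) and of 0.05 with tiamulin (SE 0.052, 95% interval -0.06 to 0.16, adjusted p = 0.540). The interval under lefamulin runs from 0.927-fold to 1.08-fold, so a change of Arf1 as large as the difference in Arf2 lies outside it.

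Arf3 (ENSMUSG00000051853, chromosome 15, 98634515 to 98661095, minus strand), a class I ARF that acts at the trans-Golgi network, fell under tiamulin. Controls 1, 2 and 3 had 7904, 7896 and 7951 counts, lefamulin libraries 6622, 6945 and 7167, and tiamulin libraries 6353, 6370 and 6734. In CPM these were 453 ± 8.16, 427 ± 10.9 and 394 ± 6.18 (SD, n = 3 each), and every lefamulin library and every tiamulin library lay below every control. Tiamulin against control gave -0.20 on the log2 scale (SE 0.048, 95% interval -0.31 to -0.10, edgeR-adjusted p = 0.00949), a level of 0.868 times the control. It passed in each of 19 alternatives, with adjusted p values of at most 0.0452, and at 2.66e-04 without tiamulin 2. Under lefamulin it was -0.09 (SE 0.048, edgeR-adjusted p = 0.266) and did not pass. The drugs differed by -0.12 (SE 0.048, 95% interval -0.22 to -0.01, edgeR-adjusted p = 0.174), which did not pass, but passed with offsets for GC content (log2(fold change) -0.16, adjusted p = 0.00988).

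The class II genes passed under neither drug. Arf4 (ENSMUSG00000021877, chromosome 14, 26359229 to 26386239, plus strand), which acts between the endoplasmic reticulum and the Golgi, had 5646, 6068 and 6094 counts in the controls, 5461, 5972 and 5522 counts under lefamulin and 6134, 5095 and 6413 counts under tiamulin. Tiamulin 2 had the lowest CPM of all libraries and the other tiamulin libraries the highest. Against control, lefamulin stood at a log2(fold change) of 0.04 (SE 0.066, edgeR-adjusted p = 0.758) and tiamulin at 0.07 (SE 0.066, edgeR-adjusted p = 0.537). Without tiamulin 2, the value under tiamulin was 0.14 and passed (edgeR-adjusted p = 0.0169, the lowest of all alternatives, which reached 0.861). The transcript of Arf4 has a GC content of 43.6%, the lowest of the 6, and the part of the GC trend of tiamulin 2 in its count was not tested for this gene alone. With offsets for GC content the adjusted p value was 0.136.

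Arf5 (ENSMUSG00000020440, chromosome 6, 28423559 to 28426601, plus strand), the other class II gene, had 1153, 986 and 1168 counts in the controls, 902, 896 and 830 counts under lefamulin and 1021, 1102 and 1013 counts under tiamulin. In CPM these were 63.1 ± 4.96, 54.2 ± 3.39 and 63.5 ± 4.77 (SD, n = 3 each). The lefamulin libraries were the lowest as a group, but lefamulin 1, at 57.6 CPM, lay just above control 2, at 57.4 CPM. For lefamulin this was a log2(fold change) of -0.22 (SE 0.081, 95% interval -0.39 to -0.05, edgeR-adjusted p = 0.0923) and for tiamulin 0.01 (SE 0.081, edgeR-adjusted p = 0.953). The value under lefamulin passed at an adjusted p of 0.0137 without tiamulin 2, whose spread enters the shared error, and at 0.0207 with the control and lefamulin libraries fitted alone, and missed the threshold in the other 17 alternatives. The direct difference between the drugs was 0.23 (SE 0.081, 95% interval 0.06 to 0.40, edgeR-adjusted p = 0.118), and every tiamulin library lay above every lefamulin library.

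Arf6 (ENSMUSG00000044147, chromosome 12, 69418924 to 69420557, plus strand), which controls endosome recycling and the actin cytoskeleton at the cell surface, varied as much within groups as between them. Control libraries had 1954, 1571 and 1802 counts, those with lefamulin 1518, 1608 and 1729, and those with tiamulin 1585, 1944 and 1668. The highest library was tiamulin 2, at 121 CPM, and the lowest control 2, at 91.4 CPM. On the log2 scale lefamulin differed from control by -0.02 (SE 0.094, 95% interval -0.22 to 0.18, edgeR-adjusted p = 0.902) and tiamulin by 0.05 (SE 0.094, 95% interval -0.15 to 0.25, edgeR-adjusted p = 0.763). Without tiamulin 2 the latter was -0.06.

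**Figure D2:**
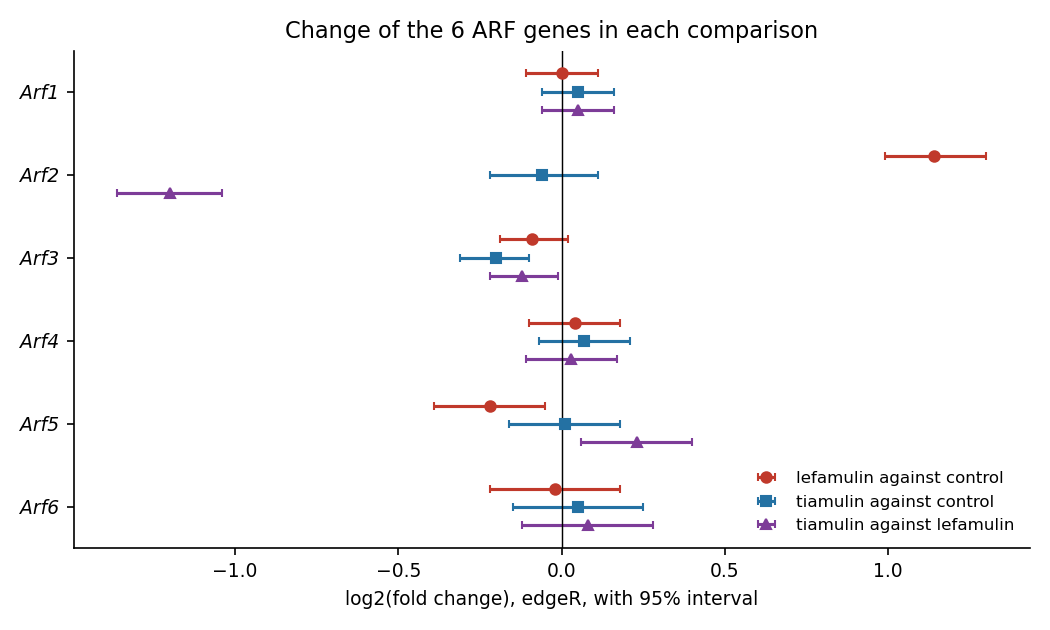
The log2(fold change) of the 6 ARF genes by edgeR in the 3 comparisons, with 95% intervals, on a horizontal axis where 0 is no difference. Arf2 stands apart under lefamulin at 1.14, a value that chose it, and the intervals of the other members all lie between -0.39 and 0.40.

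Of the 5 members picked by name, 0 passed an adjusted p of 0.05 under lefamulin, where 13.1% of all tested genes did, and 1, Arf3, passed under tiamulin, where 16.4% did. Under lefamulin, Arf5 was the 1 member with an unadjusted p value under 0.05, at 0.0170 by edgeR, and 0 passed after adjustment by DESeq2. Between the drugs 0 of the 5 passed, where 4.90% of all genes did, with Arf3 and Arf5 at unadjusted p values of 0.0284 and 0.0134 by edgeR. DESeq2 called 0 of them there. Libraries of lefamulin and control did not overlap for Arf2 and Arf3, where 37.6% of all tested genes did not overlap, and those of tiamulin and control did not overlap for Arf3, where 32.3% did not. The drugs did not overlap for Arf2, Arf3 and Arf5, where 26.5% of genes did not. With 6 genes, nothing about the family is read from these shares. The median log2(fold change) over all tested genes was 0.00 under both drugs.

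Some members share their locus with other genes, and whether reads were counted by strand is not given in the sources used here, so reads of overlapping genes on opposite strands cannot be told apart. Arf5 lies wholly inside the span of Gcc1, a Golgi coiled-coil protein gene on the minus strand. Gcc1 had a log2(fold change) of 0.25 under lefamulin (SE 0.085, edgeR-adjusted p = 0.0670) and of 0.25 under tiamulin (SE 0.085, edgeR-adjusted p = 0.0550). Arf4 overlaps Pde12 over 5127 bases, and Pde12 did not pass under either drug (edgeR-adjusted p = 0.338 and 0.816). Arf6 overlaps the noncoding Gm9887, which had at most 19 counts in any library. Next to Arf2, Nsf had 1169, 1114 and 1140 counts in the controls, 945, 957 and 1006 counts under lefamulin and 766, 880 and 799 counts under tiamulin. Nsf fell under tiamulin, by -0.40 on the log2 scale (SE 0.075, edgeR-adjusted p = 0.00217). Under lefamulin it was at -0.13 (SE 0.075, adjusted p = 0.304), where its neighbour Arf2 was at 1.14.

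Levels of different genes were compared per length, with the deposited FPKM (fragments per length of the gene and size of the library). In the controls Arf1 was the most abundant ARF, at 269 ± 5.70 FPKM (SD, n = 3), which was 47.5% of the summed FPKM of the 6. Arf4 and Arf3 followed at 93.9 ± 3.77 and 93.5 ± 1.78 FPKM, and these neighbours did not differ beyond their spread. Arf6 stood at 65.9 ± 6.95 FPKM and Arf5 at 32.9 ± 2.57 FPKM. Arf2 was the lowest, at 11.3 ± 0.603 FPKM, and made up 1.99% of the family. The order of the 6 genes was the same in all groups, but its lower end changed. In the controls the mean of Arf5 was 2.91 times that of Arf2, under tiamulin 3.05 times, and under lefamulin 1.13 times.

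Under lefamulin Arf2 stood at 23.7, 25.6 and 25.5 FPKM in libraries 1, 2 and 3, and Arf5 at 30, 28.1 and 26.5 FPKM. Arf5 was still the higher in each library, and in lefamulin 3 the gap was down to 26.5 against 25.5 FPKM. Arf2 then made up 4.36% ± 0.194 (SD, n = 3) of the family, against 1.99% ± 0.138 in the control and 1.90% ± 0.0978 under tiamulin. The summed FPKM of the 6 genes overlapped between the groups, at 557 to 577 in the controls, 569 to 573 under lefamulin and 555 to 596 under tiamulin. The share of Arf3 was 16.5% ± 0.478 in the control, 15.4% ± 0.449 under lefamulin and 14.2% ± 0.317 under tiamulin. Arf1 kept the largest share in every group, at 47.1% ± 0.621 under lefamulin and 48.9% ± 1.03 under tiamulin.

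**Figure D3:**
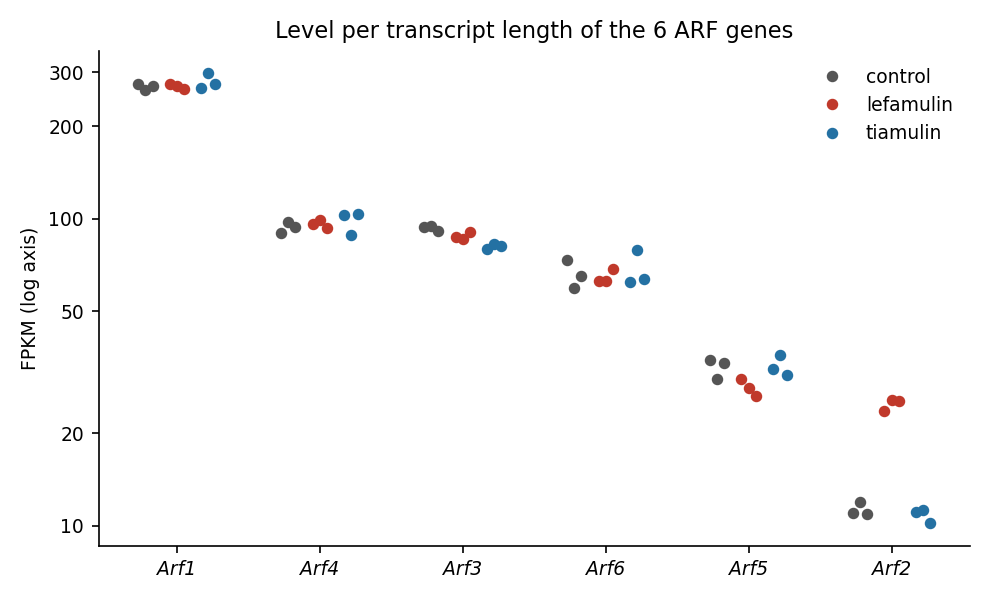
FPKM of the 6 ARF genes on a log axis, in the order of their control means, with 1 point per library and groups in separate colours. Arf2 under lefamulin, at 23.7 to 25.6 FPKM, comes close to Arf5, at 26.5 to 30 FPKM, while in the other groups it stays between 10.2 and 12 FPKM.

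The genes whose normalized log2 CPM followed that of Arf2 most closely over the 9 libraries, among 11803 protein-coding genes, were Slc35b1 (Pearson's r = 0.978), Ddx20 (0.976), Nop56 (0.962), Slc26a2 (0.958) and Atp1b1 (0.958). The correlations are a description over libraries that share groups and depth. Slc35b1, a nucleotide carrier of the endoplasmic reticulum, was 52.4 to 55.6 CPM in the controls, 67.4 to 70.9 CPM under lefamulin and 50.7 to 53.5 CPM under tiamulin. Slc26a2, a sulfate transporter, was 67.4 to 72.3 CPM in the controls, 109 to 124 CPM under lefamulin and 57.9 to 71.6 CPM under tiamulin. With lefamulin its log2(fold change) was 0.78, the largest of the 5, and all 5 were smaller than that of Arf2. Ddx20, an RNA helicase of the SMN complex, was at 0.34, Nop56, a core protein of box C/D snoRNPs, at 0.19, and Atp1b1, the beta subunit of the sodium pump, at 0.30. Among the ARFs, the r with Arf2 was -0.793 for Arf5 and between -0.267 and 0.127 for Arf1, Arf3, Arf4 and Arf6.

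Genes that switch ARFs on and off or act with them were followed in 7 lists of 135 genes, of which 124 were tested. Under lefamulin 9 of these rose and 6 fell, 12.1% of those tested against 13.1% of all genes, of which 7.09% rose and 6% fell. Under tiamulin 14 rose and 5 fell, 15.3% against 16.4%, of which 9.08% rose and 7.34% fell. The pooled shares were thus near those of all tested genes under both drugs. By list under lefamulin, 13.3% of exchange factors, 13% of GTPase-activating proteins, 0% of COPI genes and 5.26% of adaptors passed. Other effectors were at 12.5%, ARF-like and SAR1 genes at 10.5% and COPII and cargo receptors at 21.7%. In the same order, tiamulin gave 6.67%, 8.7%, 11.1%, 26.3%, 25%, 5.26% and 21.7%. Single lists lay on both sides of the shares of all genes, and their 9 to 23 tested genes are few. The median log2(fold change) of the 124 genes was 0.032 under lefamulin and 0.073 under tiamulin. These counts depend on tiamulin 2. Without it 33 genes passed under lefamulin and 31 under tiamulin, while all genes past the threshold numbered 3708 and 3433, against 1900 and 2383 with it. The counts per list moved as well when single libraries were left out. Under lefamulin and tiamulin, they ran from 0 to 4 and 0 to 4 for exchange factors, 3 to 7 and 1 to 5 for GTPase-activating proteins, 0 to 1 and 0 to 2 for COPI and 0 to 5 and 1 to 7 for adaptors. They ran from 1 to 2 and 2 to 4 for other effectors, 0 to 5 and 1 to 4 for ARF-like and SAR1 genes, and 2 to 9 and 2 to 6 for COPII and cargo receptors. In the same fits, all genes past the threshold ran from 993 to 3708 under lefamulin and from 1462 to 3433 under tiamulin. With GC offsets, 10 GTPase-activating proteins and 10 adaptors passed under tiamulin, where 3667 of all 14510 tested genes passed with the same offsets, against 2383 without them. Of the calls against control named below, DESeq2 did not make those of Psd2, Asap3 and Ap4s1. Limma with either pseudocount did not make those of Psd and Arl4a under lefamulin and of Gbf1, Asap3 and Mapk8ip3 under tiamulin. With only the groups compared, those of Gbf1, Copb1, Ap4s1, Ap1g1, Mapk8ip3 and Tmed4 under tiamulin were lost, and with no filter on low counts those of Tmed2 under lefamulin and Ap4s1, Ap1g1 and Tmed4 under tiamulin. A fit with the replicate number as a further term (the replicate block) lost more calls. It gave 11 pathway genes under lefamulin and 10 under tiamulin, against 15 and 19. Apart from left-out libraries, Spag9 under lefamulin passed in 9 of 10 alternatives (adjusted p up to 0.0717).

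Of the 15 exchange factors tested, 1 rose and 1 fell under lefamulin and 13 did not pass. Psd2, an exchange factor for ARF6, rose with a log2(fold change) of 1.2 (SE 0.355, edgeR-adjusted p = 0.0365). Controls had only 10, 10 and 17 counts and lefamulin libraries 23, 22 and 34, and the call was lost when control 1 or 2 or any lefamulin library was left out, with an adjusted p of up to 0.153. Psd, its relative, fell by 0.45 on the log2 scale (SE 0.120, edgeR-adjusted p = 0.0249), from 31.8 ± 2.62 to 23.3 ± 1.23 CPM (SD, n = 3 each), a call lost without control 1 or 3 or any lefamulin library (adjusted p up to 0.107). Under tiamulin Psd was at -0.20 (edgeR-adjusted p = 0.297), and without tiamulin 2 at -0.37 (edgeR-adjusted p = 0.00408). Under tiamulin 1 of the 15 rose. Gbf1, the exchange factor that activates ARFs at the cis-Golgi, had 1744, 1610 and 1924 counts in the controls, 1488, 1563 and 1556 counts under lefamulin and 1843, 2194 and 1932 counts under tiamulin. Against control it stood at 0.27 on the log2 scale with tiamulin (SE 0.079, edgeR-adjusted p = 0.0325) and -0.09 under lefamulin (SE 0.079, edgeR-adjusted p = 0.538). Tiamulin 2 was its highest library, and without it the value under tiamulin was 0.17 (adjusted p = 0.0361). The call was lost without control 1 or 2 or any lefamulin library (adjusted p up to 0.143). The trans-Golgi exchange factors Arfgef1 and Arfgef2 did not pass under either drug.

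Of 23 GTPase-activating proteins, 1 rose and 2 fell under lefamulin, and 2 rose under tiamulin. Agfg2 rose under lefamulin from 43.0 ± 1.75 to 59.5 ± 1.77 CPM (SD, n = 3 each), a log2(fold change) of 0.47 (SE 0.075, edgeR-adjusted p = 8.33e-04). Adap2 and Arap3, both GTPase activators that bind phosphoinositides, fell by 0.46 and 0.44 on the log2 scale (SE 0.099 and 0.091, edgeR-adjusted p = 0.00785 and 0.00496). These calls of Agfg2, Adap2 and Arap3 held in each of 19 alternatives. Under tiamulin Arap3 was at -0.22 (edgeR-adjusted p = 0.116), and without tiamulin 2 at -0.32 (edgeR-adjusted p = 0.00153). Under tiamulin Agap1 rose by 0.38 (SE 0.078, edgeR-adjusted p = 0.00426), or 0.28 without tiamulin 2, and Asap3 by 0.51 (SE 0.152, edgeR-adjusted p = 0.0318). Asap3 rested on 73 to 118 counts per library, and the call was lost without any 1 of the controls or without tiamulin 1 or 3 (adjusted p up to 0.118). By limma on log2(FPKM + 1) it was at 0.30 (adjusted p = 0.0622).

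Of the 9 COPI coat subunits, 1 passed under tiamulin, where the median log2(fold change) of the 9 was 0.086, against 0.027 under lefamulin. Copb1, the beta subunit, had 3963, 4333 and 4322 counts in the controls and 4959, 4084 and 4828 counts under tiamulin, a log2(fold change) of 0.22 (SE 0.064, edgeR-adjusted p = 0.0304). Its adjusted p value was 4.00e-05 without tiamulin 2. The call was lost without control 1 or 3, lefamulin 2 or 3, or tiamulin 1 or 3 (adjusted p up to 0.130).

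Of 19 AP and GGA adaptor genes, 1 rose under lefamulin, and 3 rose and 2 fell under tiamulin. Ap1g2, a gamma subunit of AP-1, stood at 17.5 ± 1.76, 23.8 ± 1.16 and 24.3 ± 3.15 CPM (SD, n = 3 each) in the controls, with lefamulin and with tiamulin. Its log2(fold change) was 0.45 (SE 0.109, edgeR-adjusted p = 0.0151) and 0.47 (SE 0.109, edgeR-adjusted p = 0.00826). The first call was lost without control 2 or 3 or lefamulin 1 or 2 (adjusted p up to 0.0798). Under tiamulin Ap3m2 rose by 0.41 (SE 0.112, edgeR-adjusted p = 0.0217) and Ap1g1, the other AP-1 gamma subunit, fell by 0.19 (SE 0.058, edgeR-adjusted p = 0.0378). The call of Ap3m2 was lost without control 1 or 3 (adjusted p up to 0.0945), and that of Ap1g1 without any 1 of the controls, any 1 of the lefamulin libraries or tiamulin 1 (adjusted p up to 0.135). Ap4s1, with 22 to 55 counts per library, fell by 0.73 under tiamulin (SE 0.238, edgeR-adjusted p = 0.0486) a call lost in 8 of 9 fits with a library left out (adjusted p up to 0.142, without tiamulin 2).

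Of 16 other effectors, 2 rose under lefamulin and 4 under tiamulin. Rab11fip4, which binds ARFs and the recycling endosome GTPase RAB11, was 8.02 ± 0.459, 12.6 ± 1.01 and 11.5 ± 1.01 CPM (SD, n = 3 each) in the controls, with lefamulin and with tiamulin. Its log2(fold change) was 0.65 (SE 0.120, edgeR-adjusted p = 0.00257) and 0.52 (SE 0.121, edgeR-adjusted p = 0.00866). By limma on log2(FPKM + 1) these were 0.37 and 0.29, and the second call was lost (adjusted p = 0.0515). Spag9, an ARF6 effector that links vesicles to motor proteins, rose by 0.19 under lefamulin (SE 0.054, edgeR-adjusted p = 0.0319) and by 0.27 under tiamulin (SE 0.054, edgeR-adjusted p = 0.00277). The first call was lost without any 1 of the controls or lefamulin 2 or 3 (adjusted p up to 0.145). Mapk8ip3, its relative, rose by 0.29 under tiamulin (SE 0.092, edgeR-adjusted p = 0.0453), a call lost in 8 of 9 fits with a library left out (adjusted p up to 0.143). Without tiamulin 2 its value was 0.17 (adjusted p = 0.0592).

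Of 19 ARF-like and SAR1 genes tested, 2 rose under lefamulin and 1 under tiamulin. Arl4d, a GTPase of the plasma membrane, had 43, 44 and 44 counts in the controls, 65, 62 and 68 counts under lefamulin and 71, 78 and 79 counts under tiamulin. All treated libraries lay above all controls. This was a log2(fold change) of 0.68 (SE 0.172, edgeR-adjusted p = 0.0170) and 0.88 (SE 0.170, edgeR-adjusted p = 0.00241) for lefamulin and tiamulin. The first was lost without control 1 or 3 or lefamulin 1 or 3 (adjusted p up to 0.0645). Arl4a, its paralog, rose under lefamulin by 0.46 (SE 0.134, edgeR-adjusted p = 0.0375), a call lost without control 1 or 3 or any lefamulin library (adjusted p up to 0.165). By limma on log2(FPKM + 1) it was at 0.28 (adjusted p = 0.101). Sar1a and Sar1b, the GTPases of the COPII coat, were at 0.04 and 0.11 under lefamulin and -0.03 and 0.01 under tiamulin, and did not pass.

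Of 23 COPII and cargo receptor genes, 2 rose and 3 fell under each drug. Sec24a, a cargo-binding subunit, rose by 0.27 (SE 0.066, edgeR-adjusted p = 0.0165) and 0.26 (SE 0.066, edgeR-adjusted p = 0.0133). The first call was lost without any 1 of the controls or lefamulin 2 or 3 (adjusted p up to 0.0891), and the second without tiamulin 3 (adjusted p = 0.0543). Sec24b, its paralog, fell under lefamulin by 0.29 on the log2 scale (SE 0.055, edgeR-adjusted p = 0.00346), from 183 ± 2.02 to 150 ± 2.46 CPM (SD, n = 3 each). Without tiamulin 2 it also passed under tiamulin, at -0.13 (edgeR-adjusted p = 0.0426). Sec16b, a scaffold of endoplasmic reticulum exit sites, fell under tiamulin by 0.43 (SE 0.059, edgeR-adjusted p = 1.96e-04), from 95.6 ± 1.71 to 70.8 ± 1.33 CPM, and under lefamulin by 0.26 to 79.6 ± 3.64 CPM (SE 0.059, edgeR-adjusted p = 0.00941), a call lost without control 3 or lefamulin 2 or 3 (adjusted p up to 0.0551). Tmed6, a member of the p24 cargo receptors, had 155, 183 and 206 counts in the controls, 86, 104 and 119 counts under lefamulin and 125, 104 and 110 counts under tiamulin. It fell by 0.71 (SE 0.149, edgeR-adjusted p = 0.00614) and 0.60 (SE 0.147, edgeR-adjusted p = 0.0123), and the latter reached an adjusted p of 0.0714 without control 3. Tmed2 rose under lefamulin by 0.18 (SE 0.054, edgeR-adjusted p = 0.0426), and Tmed4 under tiamulin by 0.19 (SE 0.061, edgeR-adjusted p = 0.0461). Tmed2 was lost in 7 of 9 fits with a library left out (adjusted p up to 0.142) and Tmed4 in 8 of 9 (adjusted p up to 0.172).

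**Figure D4:**
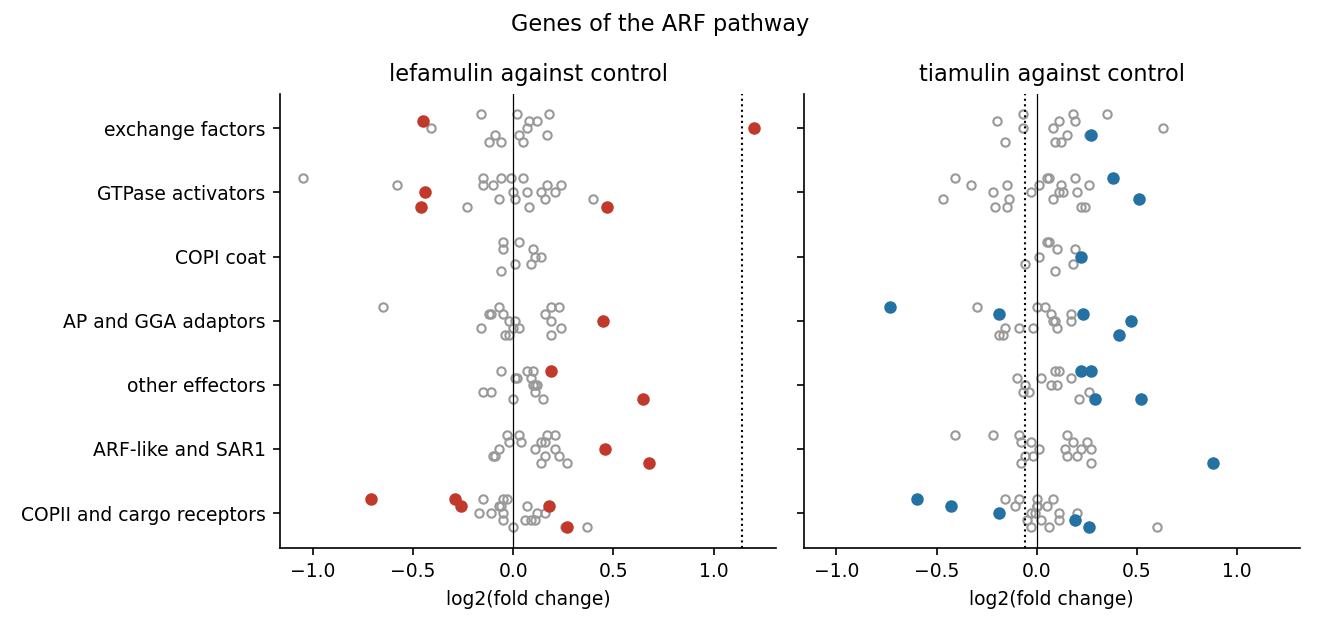
The log2(fold change) of the 124 tested genes of the ARF pathway, by list, under lefamulin (left) and tiamulin (right). Each point is a gene, filled points passed an adjusted p of 0.05 by edgeR (15 under lefamulin and 19 under tiamulin), and the dotted line is Arf2, at 1.14 and -0.06. Under lefamulin 1 filled gene, Psd2 with at most 34 counts, lies beyond Arf2.

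The drugs were also compared directly at their common dose and time. Of the 124 pathway genes, 3 differed, 2.42% against 4.90% of all tested genes, of which 2.85% were higher and 2.05% lower under tiamulin. Gbf1 and Agap1 were higher under tiamulin, by 0.35 (SE 0.079, edgeR-adjusted p = 0.0220) and 0.33 (SE 0.078, edgeR-adjusted p = 0.0294) on the log2 scale. Ap1s3, a small subunit of AP-1, was lower under tiamulin, by -0.53 (SE 0.116, edgeR-adjusted p = 0.0192), with 415, 428 and 502 counts under lefamulin and 356, 253 and 339 counts under tiamulin. Each of these calls was lost when any 1 of the lefamulin libraries was left out (adjusted p up to 0.101 for Gbf1, 0.143 for Agap1 and 0.113 for Ap1s3). Each was also lost when only the libraries of the drugs were fitted, and with the replicate block. Limma with either pseudocount lost Gbf1 and Agap1 as well. The tiamulin level of Arf1 lay between 0.959 and 1.12 times that under lefamulin, of Arf3 between 0.859 and 0.990 times, of Arf4 between 0.926 and 1.13 times, of Arf5 between 1.04 and 1.32 times and of Arf6 between 0.917 and 1.21 times (95% intervals).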

How the data were processed

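The authors deposited counts of reads per gene for 56748 genes in 9 libraries, and FPKM values made from them. The submitters' processing notes name CASAVA 1.8, fastp, HISAT2 2.0.5, featureCounts 1.5.0-p3, DESeq2 1.20.0 and the build mm10, without their roles. Counts were used as deposited. TMM factors scaled the libraries, and edgeR 4.0.16 under R 4.3.3 ran the test (filterByExpr, robust quasi-likelihood fit of all 9 libraries, group as the only term), with Benjamini-Hochberg adjustment over 14510 genes. A gene passed at an adjusted p below 0.05. SEs and 95% intervals came from the fitted weights and the moderated dispersion. Alternatives used DESeq2 1.42.0, limma 3.58.1 on log2(FPKM + 1) and log2(FPKM + 0.1), other filters and scalings, GC offsets and left-out libraries. Members and lists were chosen with earlier results of these data known. Named are the members, their neighbours, the 5 genes most correlated with Arf2, and per list and comparison up to 2 raised and 2 lowered genes with the largest change. A gene named for 1 comparison may be given in the others too. Arfgef1, Arfgef2, Sar1a and Sar1b, which did not pass, are named in addition. Within-group library pairs differed by more than sampling noise (chi-square per degree of freedom of 2.88 to 20.7).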

Additional observations from a re-analysis of the deposited data

Results flagged for a closer look

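The drugs differed in 3 pathway genes by edgeR's test of tiamulin against lefamulin itself. Gbf1 differed by a log2(fold change) of 0.35 (adjusted p = 0.0220), and was higher in 3 of 3 tiamulin libraries than in any lefamulin library. Agap1 differed by 0.33 (adjusted p = 0.0294), again higher in 3 of 3 libraries. Ap1s3 differed by -0.53 (adjusted p = 0.0192), lower in 3 of 3 libraries. Tiamulin 2 was the farthest of its group from lefamulin for each of these genes. Without it the values were 0.25 for Gbf1, 0.23 for Agap1 and -0.41 for Ap1s3, and all passed (adjusted p = 0.00527, 0.00704 and 0.00861 by edgeR). Each call was lost when any 1 of the lefamulin libraries was left out, with adjusted p values of up to 0.101 for Gbf1, 0.143 for Agap1 and 0.113 for Ap1s3, and that of Agap1 also without control 3 (0.0582). All were also lost with only the libraries of the drugs fitted and with the replicate block. Limma with either pseudocount lost those of Gbf1 and Agap1. The cause was not tested.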

How the results depend on the processing

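Over the alternatives, the log2(fold change) of Arf2 ran from 1.08 to 1.19 for lefamulin and from -0.08 to -0.01 for tiamulin. Between the drugs it was -1.13 by limma on log2(FPKM + 1), against -1.2. Counts past an adjusted p of 0.05 are given for lefamulin, tiamulin and the drugs compared. All genes numbered 1900, 2383 and 711, members other than Arf2 0, 1 and 0, and pathway genes 15, 19 and 3. With GC offsets they were 3305, 3667 and 1928 for all genes and 31, 42 and 19 for pathway genes, with 1 member, Arf3, between the drugs. With only the groups compared, all genes were 3510 for lefamulin and 280 between the drugs, pathway genes 32, 11 and 0, and 1 member, Arf5, passed for lefamulin. Between the drugs, all genes and pathway genes were 443 and 1 with limma and a pseudocount of 1, 444 and 1 with a pseudocount of 0.1, and 1271 and 9 with no filter on low counts, and DESeq2 called 8 pathway genes. Leaving out single libraries gave 993 to 3708, 1462 to 3433 and 204 to 1309 for all genes, 0 to 1, 1 to 2 and 0 to 0 for members, and 7 to 33, 8 to 31 and 0 to 13 for pathway genes. The highest counts came without tiamulin 2. Same-numbered libraries did not deviate together (correlations of -0.51 to 0.043), so the numbers do not pair them. The replicate block gave 263 genes between the drugs, and 11, 10 and 0 pathway genes. The replicate block with GC offsets gave 2972 genes for lefamulin, 1564 between the drugs with 1 member, and 26, 38 and 15 pathway genes. The cause was not tested. With 3 libraries a group, changes within the intervals given for the members cannot be told from 0 where the interval holds 0.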
